A study of Mus musculus with 4 samples.

Results

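Prdm1, Irf4, Xbp1, Sdc1, Zbtb20, Ell2 and Jchain are 7 genes tied to plasma cell fate, chosen by name out of 21883 annotated protein-coding genes, and their H3K27me3 was read from peak lists of 4 libraries. H3K27me3 is the histone mark laid down by Polycomb repressive complex 2, and CUT&Tag was used to map it: a transposase tethered to an antibody tags the DNA near the mark, which is then sequenced. The cells were germinal center B cells sorted from the spleens of C57BL/6 mice, which the series title calls pre-plasma. There were 2 wild-type (WT) mice and 2 Kdm6b B KO mice (KO), each giving 1 library from 1000 to 5000 cells. Kdm6b, also called JMJD3, is an enzyme that takes methyl groups off H3K27. All 4 mice, KO and WT alike, received sheep red blood cells as antigen, with a boost on day 5 and harvest on day 12. The labels give the genotype only as KO or WT, and the sources used here do not state the deleted part of Kdm6b, the Cre line, the age of the mice or the sort markers. Replicate numbers only name the libraries and pair none of them, and where 2 values are given for a genotype they are in the order of replicates 1 and 2.

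Plasma cells arise when a B cell shuts down its B cell program and turns on antibody secretion. Prdm1 encodes Blimp-1, the repressor that closes the B cell program, and Irf4 encodes the transcription factor that acts upstream of it at high dose. Xbp1 drives the secretory part of the unfolded protein response, Zbtb20 supports long-lived plasma cells, and Ell2 is an elongation factor that favours the secreted form of the antibody heavy chain. Sdc1 encodes syndecan-1 (CD138), the surface proteoglycan by which plasma cells are sorted, and Jchain encodes the joining chain of IgM and IgA polymers. Polycomb is known to hold plasma cell genes silent in B cells, and Prdm1 is among its described targets.

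Of the 7 genes, Prdm1 and Sdc1 lay in broad H3K27me3 domains in every KO and WT library. Irf4 and Ell2 carried at most short peaks near the start, Zbtb20 had a short start peak and a few scattered peaks far inside the gene, Xbp1 carried a short peak just upstream in 1 library, and Jchain had no peak over its body or its start. No KO against WT difference at any of the 7 genes passed the test. The RefSeq promoter table gives Prdm1 a start inside the annotated gene, and a window there was chosen after the data were seen. In it both KO libraries were covered in full and both WT libraries in part. Both KO libraries lay above both WT libraries in 14.3% of genes tested at that window.

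The sequences just upstream of the starts are shown because the genes with and without a domain can be compared by their CG content, the dinucleotide in which Polycomb-bound promoters are known to be rich. Each is the 250 bases before the start in the RefSeq promoter table (GRCm38.p6, the assembly behind mm10), read 5′ to 3′, with every CG in capitals. All 7 genes matched this table, and Xbp1 and Zbtb20 are left unprinted.
Prdm1: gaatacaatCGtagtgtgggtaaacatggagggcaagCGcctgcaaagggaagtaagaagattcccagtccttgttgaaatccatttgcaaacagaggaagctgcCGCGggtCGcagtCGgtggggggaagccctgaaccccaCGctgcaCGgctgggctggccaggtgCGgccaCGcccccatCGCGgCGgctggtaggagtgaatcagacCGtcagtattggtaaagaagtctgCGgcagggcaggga
Sdc1: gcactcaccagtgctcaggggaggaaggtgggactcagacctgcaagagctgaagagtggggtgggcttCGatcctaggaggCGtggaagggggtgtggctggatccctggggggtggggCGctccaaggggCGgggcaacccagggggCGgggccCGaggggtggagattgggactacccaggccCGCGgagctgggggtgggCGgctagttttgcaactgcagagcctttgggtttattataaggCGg
Irf4: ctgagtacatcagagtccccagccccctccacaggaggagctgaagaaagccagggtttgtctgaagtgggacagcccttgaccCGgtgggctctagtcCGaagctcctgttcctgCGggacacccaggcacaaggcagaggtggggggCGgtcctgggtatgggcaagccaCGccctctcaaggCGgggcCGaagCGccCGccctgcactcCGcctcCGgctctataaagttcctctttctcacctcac
Ell2: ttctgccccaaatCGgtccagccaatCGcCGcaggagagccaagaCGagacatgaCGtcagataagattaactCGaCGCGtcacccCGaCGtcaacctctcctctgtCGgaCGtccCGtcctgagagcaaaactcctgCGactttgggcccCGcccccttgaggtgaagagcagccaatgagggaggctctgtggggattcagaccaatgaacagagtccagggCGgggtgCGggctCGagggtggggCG
Jchain: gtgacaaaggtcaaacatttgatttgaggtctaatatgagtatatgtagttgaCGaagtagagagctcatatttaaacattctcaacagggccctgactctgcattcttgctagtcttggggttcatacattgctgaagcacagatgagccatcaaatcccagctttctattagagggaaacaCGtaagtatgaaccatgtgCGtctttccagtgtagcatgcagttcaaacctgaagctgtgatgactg
The Prdm1 stretch is chr10:44458749-44458998 on the minus strand, and that of Sdc1 is chr12:8771146-8771395 on the plus strand. The stretch of Irf4 is chr13:30748983-30749232 and that of Ell2 is chr13:75707234-75707483, both on the plus strand. The stretch of Jchain is chr5:88527898-88528147 on the minus strand. CG reads the same on both strands. It occurred 15 times upstream of Prdm1, 10 times upstream of Sdc1, 11 times upstream of Irf4, 19 times upstream of Ell2, 8 times upstream of Xbp1 and 3 times each upstream of Jchain and Zbtb20. Among 17491 promoters of this length in the table the median was 10, and 92.7% held at least 1 CG. At least as many CG as in the Prdm1 stretch were found in 36.7% of these promoters, as in the Sdc1 stretch in 50.4%, as in the Ell2 stretch in 25.6% and as in the Jchain stretch in 76.4%. The order by CG was not the order by mark. The printed bases of Prdm1 and Sdc1 were covered by peaks over 100% of their length in all 4 libraries, whereas the Ell2 stretch, which has more CG, was covered in full in KO replicate 2 and WT replicate 1 and not at all in the other pair. The Irf4 stretch was covered over 100% in both KO libraries, with 46.8% and 0% in WT. Both KO libraries were above both WT libraries in 6.47% of the 8805 such stretches with any coverage. The Jchain, Xbp1 and Zbtb20 stretches were covered in none. For Prdm1 and Zbtb20 the promoter-table start lies 69810 and 371595 bp inside the annotated gene. At its annotated start, away from this stretch, Zbtb20 had a peak in all 4 libraries.

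The measure used throughout is the share of a window that lies under the authors' peaks, in percent. The start window is 4000 bp centred on the annotated 5′ end, the end window is the same around the 3′ end, the body runs between the ends, and the locus is the body with 50 kb on each side. A window was called marked when at least 25% of it was covered. The KO lists held 80639 peaks over 144 Mb and 90417 over 236 Mb, and the WT lists 87486 over 213 Mb and 82292 over 101.4 Mb. KO replicate 2 and WT replicate 1 were thus called more broadly than the others, and WT replicate 2 the most narrowly, with a median peak of 861 bp against 1140 to 1557 bp. Shares were therefore also computed at equal covered length, keeping in each library only the peaks of highest signal until they covered the length found in WT replicate 2. Read depth is unknown. Genotypes were compared with limma over all genes with any coverage, with Benjamini-Hochberg adjustment. The p-values rest on the spread between 2 mice per genotype, which eBayes draws toward the spread seen over all genes tested. As a check on the labelled cell type, 11 of 24 B cell and germinal center genes, Bcl6 and Pax5 among them, had no peak at the start in any library, and 2 (Id3 and Mitf) were marked in all 4. Of 19 genes of other cell types, 13 were marked in all 4 libraries, among them Gata3, Cd14, Tal1 and Pdgfrb at 100% in each, while Ncr1 and Klrb1c were at 0%. The share of all genes marked in all 4 was 20.4%. Of all 21883 genes, 9431 also had no peak at the start in any library, so the count of 11 of 24 is near that share.

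At the start window, the 7 genes fell into a covered pair, a partly covered group and Jchain at 0. KO replicate 1 had 2 of the 7 genes marked, against 28.9% of all genes. KO replicate 2 had 6, against 40.7%, WT replicate 1 had 3, against 35.9%, and WT replicate 2 had 2, against 22.4%. Prdm1 and Sdc1 were the pair marked in all 4 libraries, as were 20.4% of all genes. No gene passed in either direction at the start window (0% of 12452 tested by limma, adjusted p under 0.05). Without adjustment, 3.57% had a p under 0.05 with KO higher and 0.514% with KO lower. Of the 7 genes, 6 had coverage and were tested, with a median difference of 14.7 percentage points (KO minus WT), against 6.72 over all genes tested, and adjusted p from 0.887 to 0.930. In none of the 6 did both KO libraries lie above both WT libraries, an order seen in 14.7% of all genes tested, with the reverse in 2.44%. KO replicate 2 or WT replicate 1, the broadly called libraries, gave the highest share at each of the 6, and the part of calling breadth in the differences was not tested.

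**Figure D1:**
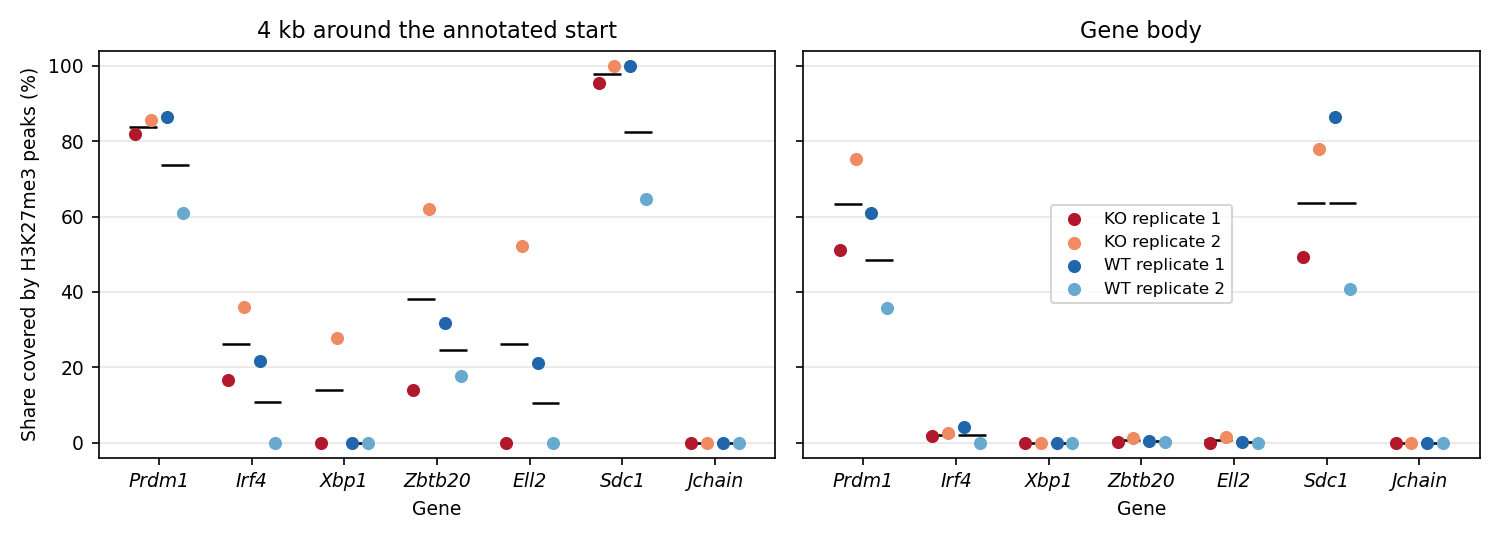
Share of the 4 kb around the annotated start (left) and of the gene body (right) covered by H3K27me3 peaks, in percent, for each of the 7 genes, with 1 point per library and a black line at the mean of each genotype (n = 2). Within each library Prdm1 and Sdc1 stand above the other 5 genes in both panels, and the KO and WT points overlap at every gene with coverage.

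Prdm1 spans chr10:44437174-44528558 on the minus strand (91385 bp). Its start window was covered over 81.85% and 85.75% in KO and over 86.55% and 61.0% in WT. Only WT replicate 2 stood lower, and the genotypes overlapped. The difference was 10.0 points (SE 11.3, limma adjusted p = 0.890) and became -2.75 points without WT replicate 2. The start region reached about as far upstream in every library, with its 5′ edge at -1391 and -1429 bp from the start in KO and at -1461 and -1408 bp in WT. On the other side it ran 6422 and 6498 bp into the gene in KO, and 6655 and 4038 bp in WT, where the shortest was again WT replicate 2. In WT replicate 2 no peak lay over the start itself. Its peaks there ran from -1408 to -674 bp and from 296 to 4038 bp. The other libraries each had a peak across the start. In a 2000 bp window around the start the difference was 24.2 points (limma adjusted p = 0.840).

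The RefSeq promoter table places the start of Prdm1 at 44458748, which lies 69810 bp inside the annotated gene, so the window around it was measured as well. This window was chosen after the data were seen. Its 4000 bp were covered over 100% in both KO libraries and over 80.4% and 74.25% in WT. Both KO libraries were above both WT libraries, including the broadly called WT replicate 1. This order occurred in 14.3% of the 10263 genes tested at that window and the reverse in 2.33%, and Prdm1 was the only one of 5 tested among the 7 genes to show it. The difference was 22.7 points (SE 4.25) with a limma adjusted p of 0.890, which did not pass. No gene passed at this window (0% each way), and the shares of genes under 0.05 before adjustment were 3.58% for KO higher and 0.526% for KO lower. Prdm1 is among the 3.58%, with a limma p of 0.0144 before adjustment. At equal covered length the shares were 100% and 100% in KO and 61.1% and 74.25% in WT, an order then seen in 11.9% of genes. The edges show where the windows differ. The region over this start, chr10:44454366-44461691, began 66867 and 67035 bp from the annotated start in the KO libraries and 68329 and 68841 bp in the WT libraries, so that on average the KO edge lay further upstream (66951 against 68585 bp). It ended at 73979 and 74192 bp in KO and at 74005 and 72301 bp in WT. In KO it was 1 unbroken peak of 7113 or 7158 bp, in WT replicate 1 it was 2 peaks covering 5412 bp, and in WT replicate 2 it was 1 peak of 3461 bp. In a 2000 bp window the difference shrank to 1.70 points, and in a 10000 bp window it was 32.95 points.

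**Figure D2:**
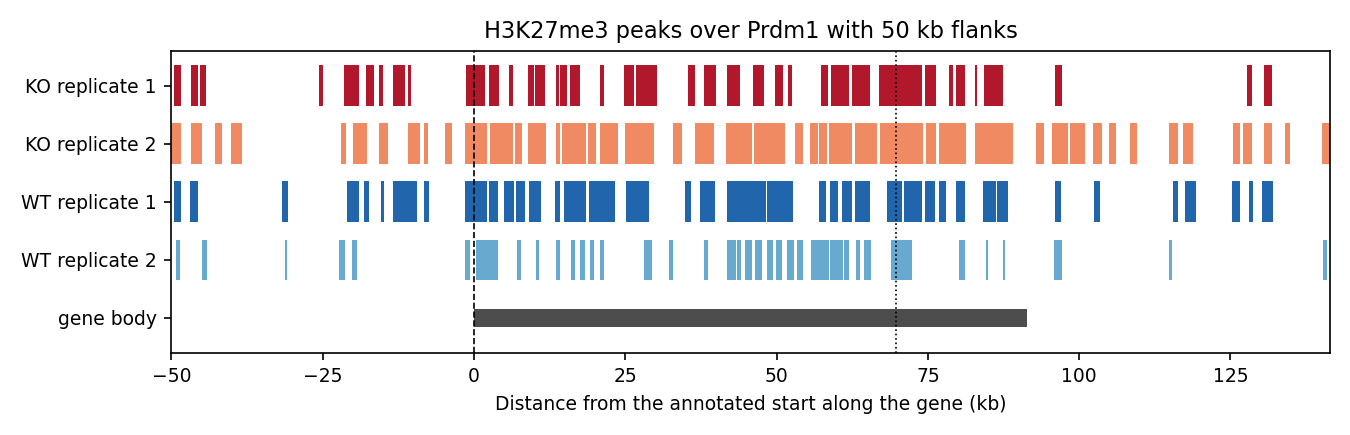
H3K27me3 peaks (bars) over Prdm1 and 50 kb on each side, with 1 row per library, against distance in kb from the annotated start along the gene. The dashed line is the annotated start and the dotted line the promoter-table start, where 1 unbroken KO peak of 7113 or 7158 bp sits over a narrower WT signal, while the rest of the gene body is dotted with peaks in all 4 libraries.

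Over the whole Prdm1 body the covered share was 51.3% and 75.3% in KO (46.8 and 68.8 kb) and 61.0% and 35.8% in WT (55.8 and 32.7 kb). The highest and the lowest were the most broadly and the most narrowly called library, 1 of each genotype, so the groups overlapped. The difference was 14.9 points (SE 15.2, limma adjusted p = 1). It became 2.82 without KO replicate 2 and 2.27 without WT replicate 2, and 26.9 without KO replicate 1 and 27.5 without WT replicate 1. At equal covered length the shares were 40.4% and 28.8% in KO and 25.2% and 35.8% in WT, and the order of the libraries changed. In each library Prdm1 was more covered than 87.5% to 90.1% of all genes. Across genes with any body coverage, 2 of 13802 passed, both higher in KO (0.0145%, with 0% lower), and neither is among the 7. Before adjustment 1.56% were under 0.05 with KO higher and 0.341% with KO lower. The called genes were the olfactory receptors Olfr263 and Olfr694. Each was covered over 100% in both KO libraries and 0% in both WT libraries. With no spread within a genotype, their SE of 0.858 came from the spread over all genes tested.

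The Prdm1 body held 26 and 22 peaks in KO and 24 and 28 in WT, and the tallest had a higher maximum than 97.9% to 99.8% of the peaks in its list. Of the 77764 bp of the body under a peak in any library, 26.0% was covered in all 4, against 20.03% of all such bases in the genome. Bases covered in both KO and neither WT library made up 5.87%, against 3.85% in the genome, and bases in both WT and neither KO 0.448%, against 1.21%. The flanks were less covered than the gene. The 50 kb upstream were covered over 23.9% and 33.0% in KO and 25.5% and 8.47% in WT. The 50 kb downstream were covered over 6.61% and 39.0% in KO and 16.8% and 4.87% in WT. Mark at the 3′ end was seen in KO replicate 2 only, at 14.25% of the end window.

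Irf4 (chr13:30749233-30766981, plus strand) carried a small peak at its start in 3 of 4 libraries. Coverage of its start window was 16.5% and 35.9% in KO, and 21.6% and 0% in WT. WT replicate 1 lay between the KO libraries, and the difference of 15.4 points (SE 12.6) had a limma adjusted p of 0.887. With a library left out in turn it ranged from 4.62 to 26.2 points. Counted from the start, the peaks themselves ran from -333 to 327 bp and from -993 to 443 bp in KO, and from -117 to 746 bp in WT replicate 1. By highest signal the KO peaks stood above 78.5% and 85.8% of the peaks in their lists, and the WT replicate 1 peak above 17.1%. At equal covered length the WT replicate 1 peak fell away, leaving 16.5% and 35.9% in KO and 0% in both WT libraries. Both KO libraries were then above both WT libraries, as in 12.3% of genes with coverage, and the adjusted p was 0.750. Beyond the start the Irf4 body had no peak, and it was covered over 1.85% and 2.50% in KO and over 4.21% and 0% in WT. The other peaks lay in the flanks, 4 to 12 per library with the start included, and no region was shared by all 4 libraries. The flanking peaks reached the bodies of Dusp22 and Exoc2, where the genotypes overlapped. The body of Dusp22, a phosphatase gene 38000 bp away, was covered over 1.56% and 3.71% in KO and 5.28% and 0% in WT. That of Exoc2, an exocyst subunit gene 22534 bp away, had 1.03% and 3.86% in KO and 1.84% and 1.03% in WT. At the Exoc2 start window, outside the flank, shares were 2.4% and 45.9% in KO and 0% in both WT libraries. That order occurred in 14.7% of genes tested at the start.

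Xbp1 (chr11:5520641-5525993, plus strand) is a short gene with no peak over its body in any library. Its start window held mark only in KO replicate 2, at 27.9%, from a peak that ran from -1772 to -657 bp and so ended upstream of the start. That peak had a higher maximum than only 8.85% of the peaks in its list and was gone at equal covered length. The difference of 13.95 points (SE 12.1, limma adjusted p = 0.887) rests on this library alone. The locus held 7 and 13 peaks in KO and 12 and 7 in WT, covering 7.76% and 21.0% in KO and 14.7% and 5.38% in WT. The region at chr11:5545218-5547306, downstream of the gene, was present in all 4 libraries. Further downstream the mark covered the body of Ankrd36, over 37.7% and 55.9% in KO and 44.1% and 20.8% in WT. The nearer Ccdc117 had 0.105% and 1.51% in KO and 1.47% and 0% in WT.

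**Figure D3:**
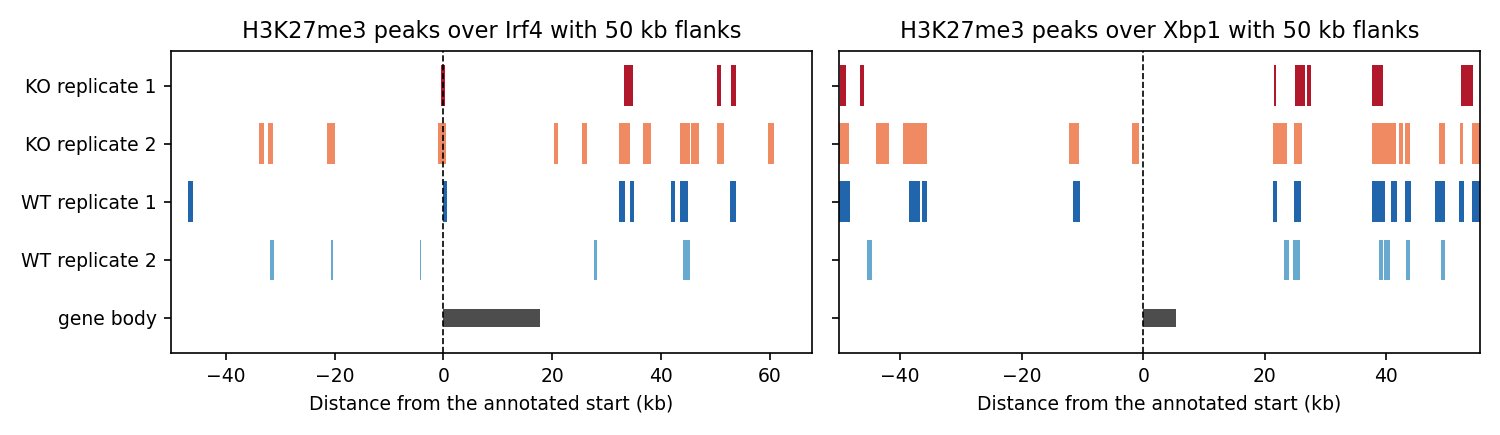
H3K27me3 peaks (bars) over Irf4 (left) and Xbp1 (right) with 50 kb on each side, 1 row per library, against distance in kb from the annotated start. Irf4 has a single short peak at its start in 3 libraries, Xbp1 has none over its body, and most peaks lie downstream of either gene.

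Zbtb20 (chr16:42875689-43634392, plus strand) is the longest of the 7 at 758704 bp. It had a short peak over the annotated start in all 4 libraries. Peaks covered 14.1% and 62.0% of the start window in KO and 31.65% and 17.8% in WT, with overlapping genotypes (13.3 points, SE 21.0, limma adjusted p = 0.930). The start peak spanned -307 to 256 bp and -799 to 413 bp around the start in KO. In WT it ran from -897 to 368 bp and from -445 to 266 bp. Its maximum exceeded that of 91.8% and 98.2% of the peaks in the KO lists and 97.7% and 56.0% in the WT lists. The promoter-table start, 371595 bp inside the gene, had no mark in any library. Inside the body KO replicate 1 had 1 further peak, KO replicate 2 had 8, and the WT libraries had 4 and 1. Of these, the peaks near 284, 315, 364 and 487 kb from the start were in both KO replicate 2 and WT replicate 1. The body as a whole was covered over 0.104% and 1.25% in KO and 0.530% and 0.175% in WT. Tigit, an inhibitory receptor gene that overlaps the Zbtb20 3′ end, had 0% and 0.877% of its body covered in KO and 1.93% and 1.91% in WT, both KO below both WT, as in 2.75% of genes.

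Ell2 (chr13:75707484-75772361, plus strand) had a peak at its start in the broadly called libraries only, and reached the marked level in KO replicate 2 alone. Its start window was covered over 0% and 52.15% in KO and over 21.15% and 0% in WT. Each genotype thus had 1 library at 0, and the difference was 15.5 points (SE 23.6, limma adjusted p = 0.926). With covered length made equal, KO replicate 2 kept 29.3% and WT replicate 1 kept 21.15%. No other peak over the body was found outside KO replicate 2, and body shares were 1.57% at most.

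**Figure D4:**
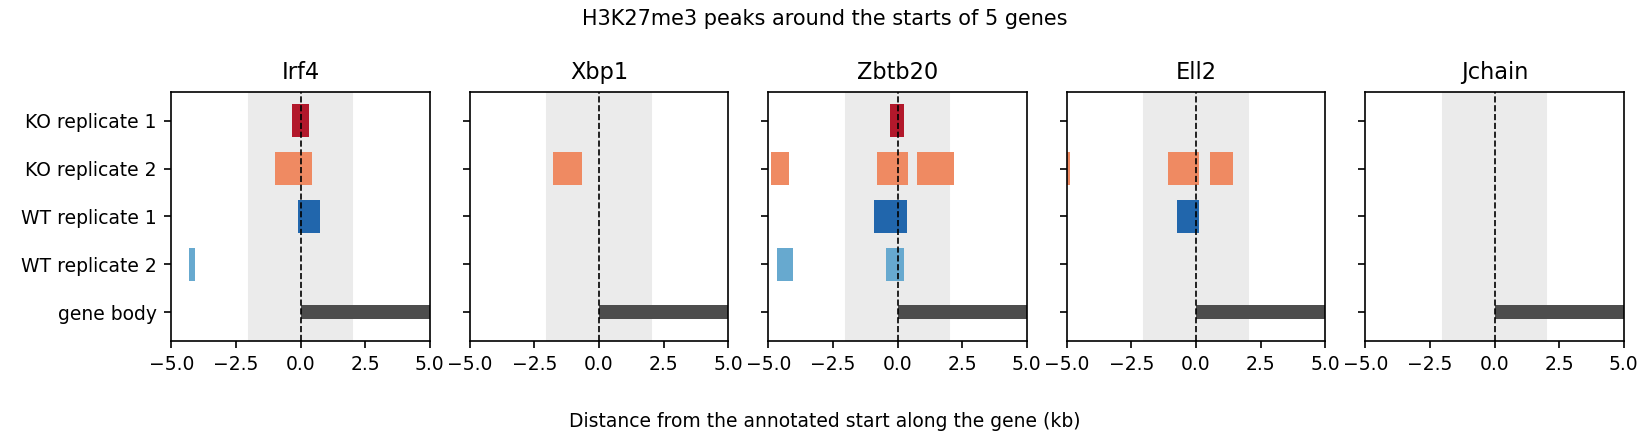
H3K27me3 peaks (bars) within 5 kb of the annotated start of Irf4, Xbp1, Zbtb20, Ell2 and Jchain, 1 row per library, with distance in kb and the 4 kb start window in grey. Zbtb20 has a peak over its start in all 4 libraries, Irf4 in 3, Ell2 in 2, and Xbp1 and Jchain in none.

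Sdc1 (chr12:8771396-8793716, plus strand) had the most covered start of the 7 genes. The window was covered over 95.6% and 100% in KO and over 100% and 64.8% in WT. Only WT replicate 2 was lower, and the difference of 15.4 points (SE 15.2, limma adjusted p = 0.887) became -2.21 points without it. The start domain, chr12:8768649-8780956, was present in each library, and its 3′ edge was more alike between libraries than its 5′ edge. Its 5′ edge was at -1823 and -2585 bp from the start in KO and at -2747 and -592 bp in WT, and its 3′ edge was 9420 and 9475 bp into the gene in KO and 9560 and 9032 bp in WT. Within these edges the KO libraries had 2 peaks and 1 peak of 12061 bp, and the WT libraries 1 peak of 12308 bp and 5 peaks. A second region inside the gene, chr12:8781264-8790642, was also present in every library. The 3′ edge depends on how peaks are joined. With gaps of up to 1000 bp joined, the start domain ended 16373 and 20974 bp into the gene in KO. In WT it then ended at 21247 and 17393 bp.

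The Sdc1 body was covered over 49.4% and 77.8% in KO and over 86.4% and 40.8% in WT. Each genotype had 1 high and 1 low library, and the means differed by 0.04 points (SE 23.4). At equal covered length the KO shares were 49.4% and 42.5%, and the WT shares 42.8% and 40.8%. Of the 20472 bp under a peak in any library, 39.6% was shared by all 4, none was found in both KO and neither WT library, and 64 bp was found in both WT and neither KO. A further domain lay downstream, where chr12:8825016-8833890 was present in all libraries with edges from 53830 to 62352 bp and from 53670 to 62443 bp past the start in KO, and from 53620 to 62494 bp and from 55142 to 62072 bp in WT. The 50 kb downstream were covered over 37.8% and 49.7% in KO and 43.2% and 13.5% in WT. The 50 kb upstream had 3.65% and 7.38% in KO and 10.4% and 1.18% in WT. Pum2, the upstream neighbour, which encodes an RNA-binding protein, had no peak.

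Jchain (chr5:88519809-88527897, minus strand) was at 0% at the start, the end and the body in all 4 libraries. The sole mark within 50 kb was 2 peaks in WT replicate 2, covering 1.81% of the locus, and the neighbours Enam, Utp3 and Rufy3 had no mark over their starts or bodies.

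Across the other windows the genotypes overlapped at each of the 7 genes before coverage was equalised. At the end window none was marked in any library, 2 were tested, and 0% of 8335 genes passed (3.16% with KO higher and 0.516% with KO lower before adjustment). Over the body 5 were tested, with a median difference of 0.32 points against 1.53 over all genes. Over the locus all 7 were tested, with a median of 3.91 against 2.42, and 0% of 17858 genes passed (0.0224% with KO higher and 0% with KO lower before adjustment). Both KO libraries were above both WT libraries in none of those tested (2 at the end, 5 over the body and 7 over the locus). Of all genes tested, 12.7% showed this order at the end, 12.3% over the body and 6.27% over the locus. The reverse order was likewise seen in none of those tested, against 2.5%, 2.75% and 1.51% of all genes tested. At equal covered length Irf4 had both KO libraries above both WT libraries over the body (1.85% and 2.50% in KO, 0% in both WT libraries), as did 10.8% of genes. The same order held for Sdc1 over the locus (19.997% and 22.2% in KO, 18.95% and 13.5% in WT), as did 12.8% of genes.

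The peaks over the 7 loci joined into 118 regions. Of these, 25 were present in all 4 libraries, namely 16 of 40 at Prdm1, 5 of 17 at Sdc1, 3 of 15 at Xbp1 and 1 of 17 at Zbtb20. All 4 libraries shared 22.9% of the 117983 regions in the genome. Only 1 region, at Irf4, was found in both KO and neither WT library, and only 1, at Prdm1, in both WT and neither KO, against 3.42% and 1.80% of regions in the genome. KO replicate 2 alone gave 28 of the 118, against 15.2% of regions in the genome. The 25 shared regions have 50 edges, of which 14 lay further out in both KO libraries than in both WT libraries and 2 further in, against 19% and 7.84% of the 53984 such edges in the genome. Prdm1 gave 10 of the 14 outward edges and Sdc1 3. The edges of 1 gene share their libraries and are not independent.

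For Prdm1, Irf4, Xbp1 and Sdc1 the genes with the most similar values were taken over 12 values each, the start, end and body shares in 4 libraries. Cpne2 was closest to Prdm1, with a mean absolute difference of 4.29 points, followed by Tfr2 (4.96) and Prss36 (5.14). Saa3 was closest to Sdc1 (4.96), followed by Fam131b (5.52) and Vash2 (5.75). Apip (0.44), Pdhx (0.68) and Elovl5 (0.76) were closest to Irf4. Bend3, LOC115488671 and Slamf6 were within 0.02 points of Xbp1, since each had a start peak in KO replicate 2 and nothing else. All 4 libraries enter this measure, so it holds the breadth of calling as well as the mark. Apip and Pdhx had the same start share in each library, and so did Bend3 and LOC115488671. Whether these start windows hold the same peaks was not tested.

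Among 30 other plasma cell and secretory genes, 22 had coverage at the start and 0 passed, as for all genes (0%). Both KO libraries were above both WT libraries in 6 and below in 0 of the 22, against 14.7% and 2.44% of all genes tested, and the median difference was 9.58 points against 6.72. In the KO libraries 7 and 15 of the 30 were marked, against 28.9% and 40.7% of all genes. In the WT libraries 13 and 5 were marked, against 35.9% and 22.4%. Fkbp11, a prolyl isomerase of the secretory pathway, was covered over 100% in both KO libraries and 97.1% and 100% in WT. Ccr10, a chemokine receptor of IgA plasma cells, was covered over 100% in both KO libraries and 100% and 87.0% in WT. Tnfrsf17, which encodes the survival receptor BCMA, and Slamf7 were at 0% in each library. The signal peptidase subunit Spcs2, outside the naming rule and singled out after its values were seen, was covered over 49.9% and 77.2% in KO and 30.15% and 0% in WT (48.5 points, SE 17.3, limma adjusted p = 0.887).

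Of 24 B cell and germinal center genes, 13 had coverage at the start and 0 passed. Both KO libraries were above both WT libraries in 2 and below in 0 of the 13, against 14.7% and 2.44% of all genes tested, so the count is near that share. The median difference was 10.65 points, against 6.72 over all genes. In the KO libraries 5 and 6 of the 24 were marked, against 28.9% and 40.7% of all genes, and in the WT libraries 4 and 2, against 35.9% and 22.4%. Ets1, a transcription factor known to restrain plasma cell formation, was marked in both KO libraries (48.4% and 29.85%) and neither WT library (16.4% and 0%), a pattern seen in 1.06% of all genes, with the reverse in 0.201%. Its adjusted p in limma was 0.887. Id3, an inhibitor of E proteins, was covered over 77.75% and 100% in KO and 95.0% and 40.9% in WT, and Mitf over 49.0% and 53.6% in KO and 76.6% and 25.95% in WT.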

How the data were processed

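H3K27me3 CUT&Tag peaks were analysed for 2 WT and 2 KO libraries. The authors deposited 1 peak list per library with 6 columns, giving position, total signal, highest signal and its place. Each library has its own list, with no pooling. The submitters' processing notes name Bowtie2 2.4.2, SAMtools 1.11, Trim Galore 0.6.6, deepTools and SEACR, with mm10 as the build. Tool settings and the peak threshold are not stated in those sources. The deposited signal was used only to rank peaks within a list, since its scale is unknown.

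Only the autosomes (1 to 19) and the sex chromosomes were used. Genes and starts came from RefSeq GRCm38.p6. The annotation has no strand, so strand came from the promoter table for 17491 genes, and for 4392 genes the lower coordinate was taken as the start. The 7 genes all have a strand. Exons, introns and UTRs were not used here. The comparison of shares used limma 3.58.1 in R 4.3.3 (eBayes after lmFit, with no trend) over genes with coverage, Benjamini-Hochberg adjusted at 0.05. The code was tested on simulated data with normal noise and no bounds. Real shares are bounded, so that run checks the code and not how the test behaves on shares. Regions are peaks that overlap or touch. Tables and plots used Python 3.11.15, numpy 2.4.6, pandas 2.3.3 and matplotlib 3.10.9.

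The members and the gene lists were chosen with earlier results of these data known. Named genes were the 7, the 3 closest genes to Prdm1, Irf4, Xbp1 and Sdc1 (outside 1 Mb, without predicted and receptor-family genes), neighbours within 50 kb that their peaks reach, and list genes marked in both libraries of a genotype and neither of the other, with at most 4 more per list (highest and lowest mean share). Alternatives were window width, equal covered length, peaks of at least 500 bp, gaps of up to 1000 bp filled, the upper 50% of peaks by signal, covered length as a covariate, eBayes with trend, a mean share of at least 5%, marking from 10% or 50%, and each library left out. The window at the promoter-table start was added after the data were seen.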

Additional observations from a re-analysis of the deposited data

How the results depend on the processing

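No paired analysis was possible because the labels number no replicates and the numbers used here only follow accession order, so no KO mouse is matched to a WT mouse. With 2 mice per genotype and breadth of calling differing by library, the size of each difference is poorly fixed, and read depth is unknown. None of the differences at the 7 genes passed the threshold under any alternative run, with adjusted p from 0.139 to 1. Of 189 values outside the left-out libraries 177 kept their direction, and of 96 with a library left out 76 did. Some values could not be computed where an alternative left a window without coverage. The cause of each change below was not tested.

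Differences (KO minus WT, in percentage points) that changed sign are these. At equal covered length Zbtb20 gave -2.51 at the start, -0.068 over the body and -0.15 over the locus, Ell2 gave -0.017 over the body and -0.43 over the locus, and Irf4 gave -0.10 over the locus. With gaps filled, Prdm1 gave -0.61 at the start and Sdc1 -3.81 over the body. With the upper 50% of peaks, Sdc1 gave -11.2 and Ell2 -0.017 over the body. With covered length as a covariate, Sdc1 gave -12.1 and Irf4 -0.76 over the body. The Prdm1 difference at the promoter-table start kept its direction in each alternative, from 1.70 to 32.95.

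With each library left out in turn, differences at the start ranged from -2.75 to 22.8 for Prdm1, -10.6 to 37.25 for Zbtb20, -10.6 to 41.6 for Ell2 and -2.21 to 33.0 for Sdc1, and the ranges of Ell2 and Sdc1 also hold at the promoter-table start. At the end Sdc1 ranged from -15.0 to 8.19. Over the body the ranges were -2.03 to 2.17 for Irf4, -0.25 to 0.90 for Zbtb20, -0.10 to 1.47 for Ell2 and -22.7 to 22.8 for Sdc1. Over the locus they were -0.91 to 8.73 for Irf4, -2.26 to 10.96 for Xbp1, -0.33 to 0.90 for Zbtb20, -1.55 to 4.00 for Ell2 and -5.94 to 18.3 for Sdc1. Without a change of sign, the ranges were 4.62 to 26.2 at the start of Irf4, 13.95 to 27.9 at that of Xbp1, 2.27 to 27.5 over the Prdm1 body, 2.06 to 24.4 over its locus, 7.12 to 14.25 at its end and -1.81 to -0.90 over the Jchain locus. The sign changes came with KO replicate 2 or WT replicate 2 left out, except at the Sdc1 end window, where leaving out KO replicate 1 gave 4.78 and leaving out WT replicate 1 gave 8.19.

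The 2 genes called over the body became 1 at equal covered length, 4 with gaps filled, and 0 with the covariate, with trend, with the 5% filter and with any library left out (range 0 to 0). With marking from 10%, 4 and 6 of the 7 starts were marked in KO, and 5 and 3 in WT. At the end window 0 and 2 were then marked in KO, and 1 and 0 in WT. With marking from 50%, 2 and 4 starts were marked in KO and 2 in each WT library, and no end was. The share of all genes marked at 10% or 50% is not given here, so these counts have no background.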
